A study of Homo sapiens with 8 samples.

Results

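Islet-like cells that carried a knockout of ISL1, PAX6 or PDX1 were set, as 1 side of the comparison, against wild-type cells that had received the same control vector. Of 21 libraries in the series 11 entered: 3 of ISL1 KO BFP, 3 of PAX6 KO BFP, 3 of PDX1 KO BFP and 2 of WT BFP (replicates 1 and 3). The knockout side was the mean of the 3 knockout group means, so each knockout weighed the same. Genes that moved the same way in every knockout were then separated from genes that 1 knockout carried alone. All cells derived from the established human embryonic stem line H1, were differentiated toward pancreatic islet cells, were transduced with a vector for blue fluorescent protein (BFP) alone on day 11 of differentiation, and were taken for bulk RNA sequencing on day 18. The labels give 1 line per genotype; the number of clones behind a line is not given in the sources used. All 3 knockouts were compared with the same 2 WT BFP libraries, so these comparisons share their reference libraries. Whether a change that all 3 knockouts share belongs to the loss of these factors or to the WT BFP cultures cannot be told apart from the BFP libraries alone.

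ISL1, PAX6 and PDX1 encode homeodomain transcription factors, proteins that bind short AT-rich DNA sites and switch genes on or off. PDX1 acts in the early pancreas and later keeps insulin-producing beta cells in their state. PAX6 sustains hormone genes in several islet cell types, and ISL1 acts in maturing endocrine cells. Islet hormones are made by separate cell types: glucagon by alpha cells, insulin and amylin by beta cells, somatostatin by delta cells, and ghrelin by epsilon cells. Stem cell protocols also yield enterochromaffin-like cells, which make serotonin.

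The 11 libraries held 40959467 to 66818614 estimated counts and 24731 to 26442 detected genes, with the lowest total in WT BFP replicate 3. CHGA, which encodes the granule protein chromogranin A of endocrine cells, took the most counts in every knockout BFP library, and GCG, the glucagon gene, in both WT BFP libraries. Levels are CPM (counts relative to the library total after TMM scaling), listed in the order of replicates 1, 2 and 3 (1 and 3 for WT BFP). Log2 fold changes are given ± SE, and adjusted p-values come from edgeR's quasi-likelihood test over 21200 genes. The submitters call the libraries of a group biological replicates without saying what separates them, so p-values measure the spread between these libraries. Each library was read on lanes 1 to 4 or on lanes 5 to 8, and every group had libraries in both lane sets.

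The 3 altered genes were looked at before the rest. The ISL1 gene (ENSG00000016082 on GRCh38 chromosome 5, 51383391 to 51394738, plus strand) counted 65.6, 66.7 and 72.8 CPM in ISL1 KO BFP, 193, 125.5 and 214 in PAX6 KO BFP and 138, 155 and 121.2 in PDX1 KO BFP, against 285 and 482 in WT BFP. Every knockout library lay below both WT BFP libraries, and the mean log2 fold change was −1.69 ± 0.18 (adjusted p = 3.18e-05). ISL1 RNA was thus lower not only where ISL1 itself was altered: the fold changes were −2.49 (ISL1 KO), −1.11 (PAX6 KO) and −1.47 (PDX1 KO). Without WT BFP replicate 3, PAX6 KO was no longer called for ISL1 (log2 fold change −0.68, adjusted p = 0.0765). PAX6 (ENSG00000007372 on GRCh38 chromosome 11, 31784779 to 31818062, minus strand) had 77.2, 76.2 and 115.9 CPM in ISL1 KO BFP, 141, 100.5 and 160.1 in PAX6 KO BFP and 97.6, 111.7 and 119.2 in PDX1 KO BFP, against 143 and 234 in WT BFP. The groups overlapped, and its mean log2 fold change of −0.78 ± 0.20 (adjusted p = 0.0102) was −0.39 without WT BFP replicate 3, with adjusted p = 0.309. PDX1 (ENSG00000139515 on GRCh38 chromosome 13, 27920020 to 27926231, plus strand) had 87.4, 77.5 and 98.5 CPM in ISL1 KO BFP, 73.6, 58.4 and 73.1 in PAX6 KO BFP and 92.1, 103 and 103 in PDX1 KO BFP, against 73.9 and 94.6 in WT BFP, with a mean log2 fold change of 0.00 ± 0.13 and adjusted p = 0.997. RNA of the altered gene was therefore lowest in its own knockout for ISL1 and not for PAX6 or PDX1; a knockout need not lower its RNA, so these levels do not check those 2 labels.

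In the mean of the 3 knockouts 3269 genes rose and 3525 fell, which is 15.4% and 16.6% of the 21200 genes tested. Set against WT BFP singly, ISL1 KO had 2864 genes higher and 2877 lower (13.5% and 13.6%), PAX6 KO 2921 and 2979 (13.8% and 14.1%), and PDX1 KO 3401 and 3575 (16% and 16.9%). A total of 1329 genes rose and 1470 fell in all 3 knockouts, 6.27% and 6.93% of genes tested and 41.2% of the genes called in the mean. Among them, 471 rose and 708 fell by at least 2-fold in each knockout. The median log2 fold change of the mean contrast was 1.05 over the shared higher genes and −1.25 over the shared lower genes, beside 0.02 over all genes. In 1289 of the 1329 shared higher genes and 1467 of the 1470 shared lower genes the 9 knockout libraries did not overlap the 2 WT BFP libraries. Over all genes tested 12.8% did not overlap on the higher and 14% on the lower side. Calls in all 3 knockouts against the same 2 libraries largely fix this.

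Far fewer genes could be assigned to 1 knockout by the rule used here, which sets several conditions. A gene was counted as driven by 1 knockout when it was called in the mean, called the same way in that knockout alone, and that knockout also differed from the mean of the other 2 knockouts, a test that uses no WT BFP library. By this rule PDX1 KO drove 175 higher and 163 lower genes (together 1.59% of genes tested), ISL1 KO 39 higher and 85 lower (together 0.585%) and PAX6 KO 55 higher and 47 lower (together 0.481%). Another 2528 genes were called in 2 knockouts, 804 in 1 knockout without an established difference from the others, and 71 in the mean only. A further 28 genes called in the mean were called in opposite directions in 2 knockouts. The small counts of driven genes do not mean that the knockouts were alike. The test against the mean of the other 2 knockouts, taken alone, called 3607 of 21200 genes for ISL1 KO. It called 2097 for PAX6 KO and 5304 for PDX1 KO.

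**Figure D1:**
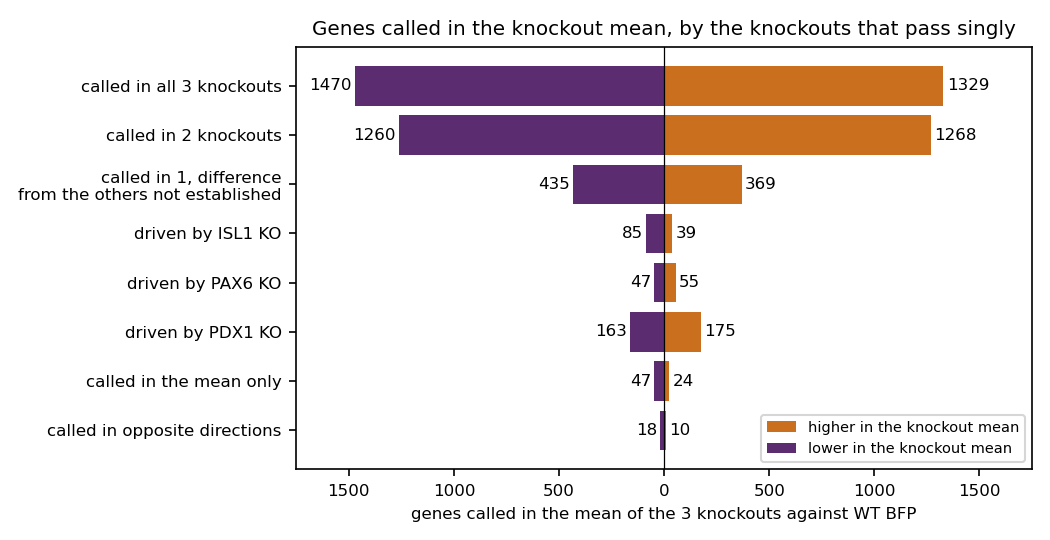
Bars count the genes called in the mean of the 3 knockouts against WT BFP (x axis, number of genes; lower to the left, higher to the right) by which knockouts passed singly. The class called in all 3 knockouts is the longest bar on both sides, with 1470 lower and 1329 higher genes.

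The counts depended on the WT BFP pair. Without WT BFP replicate 1 the shared genes numbered 563 higher and 929 lower, and without WT BFP replicate 3 they numbered 596 and 884; 986 genes (316 higher and 670 lower) stayed shared whichever of the 11 libraries was left out. Scaling by library size alone put 70.0% of shared genes on the higher side, against 47.5% with TMM, and moved the median of all genes to 0.19 on the log2 scale. Transcripts of shared higher genes had a median GC content of 56.4% and a median length of 4297 bases, those of shared lower genes 45.6% and 3096.5 bases, and all tested genes 48.6% and 3106 bases. After a trend with GC content was removed from each library, a correction chosen after the data had been seen, 2153 of the 2799 shared genes remained shared and 37.1% of shared genes stood on the higher side.

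Within each lane set the shared genes had similar sizes: a median of 0.90 (lanes 1 to 4) and 0.94 (lanes 5 to 8) for the higher genes and −1.08 and −1.10 for the lower genes. All 2799 kept their direction in both lane sets, which their choice largely fixes.

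Adhesion proteins, receptors, a homeobox factor and a noncoding RNA were among the genes raised farthest in all 3 knockouts. The 12 described here had to show no overlap between knockout and WT BFP libraries, and were ranked by the smallest of their 3 fold changes. Their values in the BFP libraries, the lack of overlap included, thus describe the choice and do not test it. KIRREL3 (ENSG00000149571 on GRCh38 chromosome 11, 126423359 to 127003460, minus strand), a cell adhesion protein of synapses, had 2.23, 2.50 and 4.88 CPM in ISL1 KO BFP, 14.7, 8.90 and 10.1 in PAX6 KO BFP and 4.45, 5.73 and 6.20 in PDX1 KO BFP, against 0.258 and 0.492 in WT BFP. PAX6 KO libraries were the highest and WT BFP the lowest, with no overlap, and the log2 fold changes were 3.13 (ISL1 KO), 4.93 (PAX6 KO) and 3.90 (PDX1 KO). PROKR1 (ENSG00000169618 on GRCh38 chromosome 2, 68643589 to 68658247, plus strand), a receptor for prokineticin peptides, had 17.98, 21.4 and 33.3 CPM in ISL1 KO BFP, 17.7, 7.58 and 13.0 in PAX6 KO BFP and 42.5, 57.3 and 74.3 in PDX1 KO BFP, against 1.37 and 1.89 in WT BFP. Here PDX1 KO was the highest group and PAX6 KO the lowest knockout, still above both WT BFP libraries; the mean log2 fold change was 4.02 ± 0.42 (adjusted p = 2.69e-05). ROS1, an orphan receptor tyrosine kinase, had 4.59, 6.45 and 5.68 CPM in ISL1 KO BFP, 11.16, 5.81 and 10.4 in PAX6 KO BFP and 5.88, 5.90 and 8.33 in PDX1 KO BFP, against 0.813 and 0.82 in WT BFP. The 3 knockouts were close to each other (adjusted p of any difference among them = 0.102), all well above WT BFP.

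DLX5, a homeobox factor of forebrain and bone, had 11.9, 6.37 and 20.4 CPM in ISL1 KO BFP, 8.57, 3.24 and 9.89 in PAX6 KO BFP and 10.6, 25.04 and 18.9 in PDX1 KO BFP, against 1.25 and 1.04 in WT BFP. Every knockout library exceeded WT BFP, although replicates within a knockout differed by several fold; without WT BFP replicate 3 the PAX6 KO call was lost (log2 fold change 2.53, adjusted p = 0.0606). B3GAT1, the enzyme that builds the HNK-1 (CD57) carbohydrate of neural and endocrine cells, had 16.9, 13.4 and 23.3 CPM in ISL1 KO BFP, 8.82, 6.05 and 7.93 in PAX6 KO BFP and 14.2, 12.1 and 11.17 in PDX1 KO BFP, against 1.37 and 1.39 in WT BFP. ISL1 KO was highest for it, and both WT BFP libraries held nearly the same low level. THSD4, an extracellular matrix protein, had 195, 231 and 268 CPM in ISL1 KO BFP, 338, 197 and 313 in PAX6 KO BFP and 394, 378 and 443 in PDX1 KO BFP, against 43.4 and 61.9 in WT BFP. Every knockout library was well above both WT BFP libraries, with PDX1 KO highest, and its mean log2 fold change was 2.50 ± 0.23.

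In the others of the 12, too, all knockout libraries lay above WT BFP, as the choice required. SH3RF3, a ubiquitin ligase scaffold, had 22.8 to 49.5 CPM in the 9 knockout libraries, against 7.42 and 6.31 in WT BFP. The homophilic adhesion protein SDK2 had 10.5 to 31.6 CPM in the 9 knockout libraries, against 4.03 and 4.35 in WT BFP. The sortilin-family receptor SORCS2 had 22.6 to 67.4 CPM in the 9 knockout libraries, against 8.19 and 4.35 in WT BFP. Knockout and WT libraries did not overlap in any of these genes. MIAT (ENSG00000225783 on GRCh38 chromosome 22, 26646428 to 26676475, plus strand), a long noncoding RNA of neural tissue, had 16.8 to 35.5 CPM in the 9 knockout libraries, against 5.34 and 5.85 in WT BFP. ADARB2, a brain RNA-editing family member, had 52.7 to 147 CPM in the 9 knockout libraries, against 18.96 and 13.1 in WT BFP. PLIN5, which coats lipid droplets, had 3.595 to 10.1 CPM in the 9 knockout libraries, against 1.35 and 0.793 in WT BFP. Its PAX6 KO call was lost without WT BFP replicate 3 (log2 fold change 1.75, adjusted p = 0.0518). Mean log2 fold changes of these 6 ran from 2.30 (MIAT) to 2.59 (SORCS2).

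**Figure D2:**
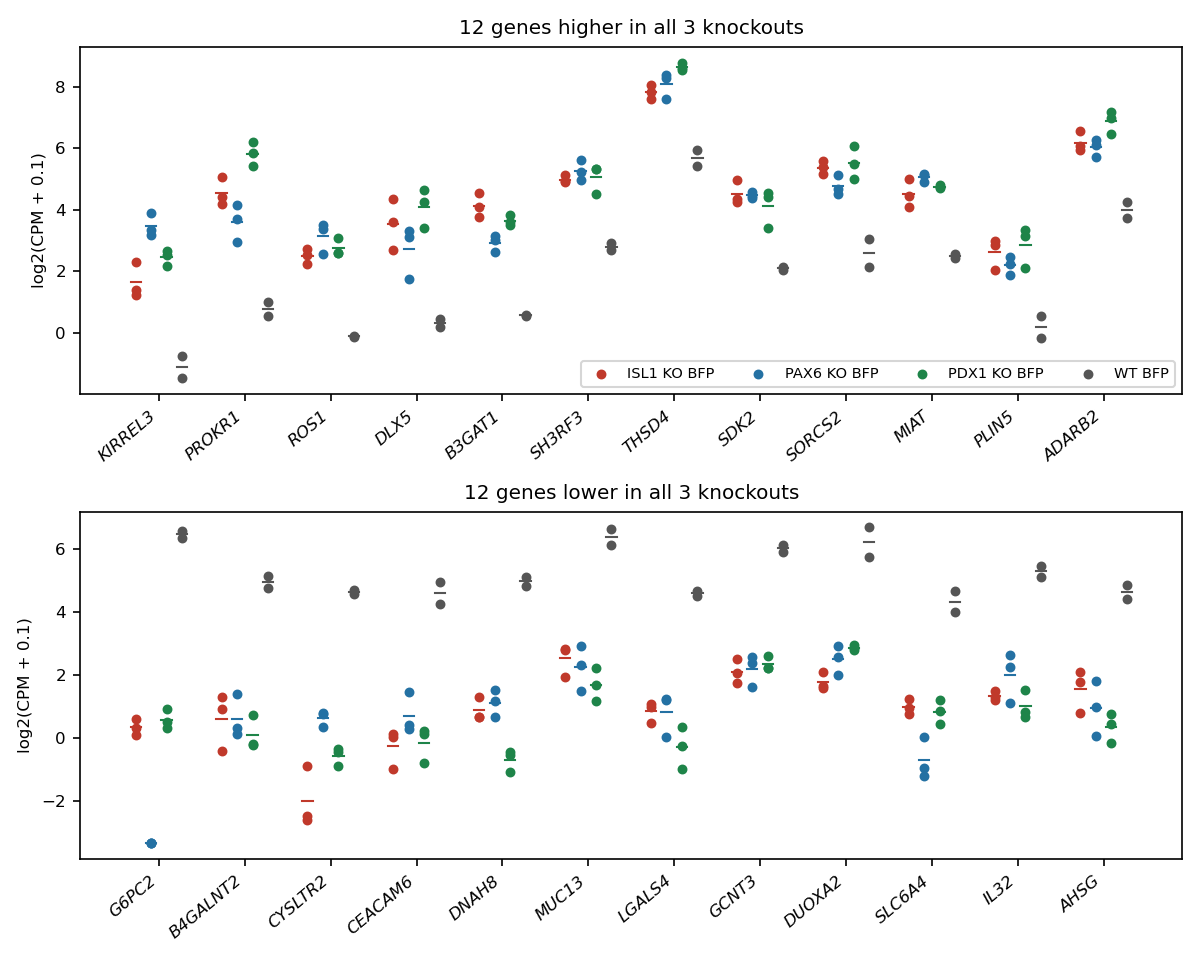
Each point is 1 library on a log2(CPM + 0.1) axis and each dash a group mean, for the 12 genes named as higher (top) and the 12 named as lower (bottom) in all 3 knockouts. In every gene the 2 WT BFP libraries lie on one side of all 9 knockout libraries, which the rule for naming these genes required. G6PC2 stands at 0 CPM in PAX6 KO BFP.

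The genes lowered farthest in all 3 knockouts included a glucose-handling enzyme of islets and several genes of mucosal epithelium. G6PC2 (ENSG00000152254 on GRCh38 chromosome 2, 168901240 to 168910000, plus strand), the islet glucose-6-phosphatase catalytic subunit that sets glucose sensitivity of beta cells, had 0.968, 1.15 and 1.42 CPM in ISL1 KO BFP, 0, 0 and 0 in PAX6 KO BFP and 1.14, 1.79 and 1.32 in PDX1 KO BFP, against 81.0 and 94.1 in WT BFP. No count of it was found in the 3 PAX6 KO libraries together; against a floor of 3 counts over that group its level was at least 5003-fold lower than in WT BFP. In ISL1 KO and PDX1 KO the log2 fold changes were −6.21 ± 0.23 and −5.94 ± 0.23. MUC13 (ENSG00000173702 on GRCh38 chromosome 3, 124905442 to 124953819, minus strand), a transmembrane mucin, had 6.77, 6.99 and 3.75 CPM in ISL1 KO BFP, 4.83, 7.50 and 2.70 in PAX6 KO BFP and 4.52, 3.07 and 2.15 in PDX1 KO BFP, against 98.3 and 69.4 in WT BFP. GCNT3 (ENSG00000140297 on GRCh38 chromosome 15, 59594875 to 59640239, plus strand), which branches the sugar chains of mucins, had 5.54, 4.07 and 3.22 CPM in ISL1 KO BFP, 2.96, 5.08 and 5.81 in PAX6 KO BFP and 4.55, 4.53 and 5.90 in PDX1 KO BFP, against 58.9 and 69.5 in WT BFP. For both genes the 3 knockouts lay together and far below WT BFP, with mean log2 fold changes of −4.20 ± 0.28 (adjusted p = 1.41e-06) and −3.80 ± 0.20 (adjusted p = 2.04e-07). In bulk RNA, fewer cells of a type and less RNA per cell cannot be told apart.

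Promoter windows are printed for G6PC2, MUC13 and GCNT3, lower in all 3 knockouts, and for ADARB2, higher in all 3 knockouts. They were taken from RefSeq on GRCh38.p14 (250 bases before to 50 after the start). Capitals mark TAATTA, a homeodomain core site, and GTTAAT or its reverse complement ATTAAC, a half-site of HNF1 factors; both strands were searched, and no window held overlapping matches. The windows lie at chr2:168901041-168901340, plus strand (G6PC2), chr3:124934702-124935001, minus strand (MUC13), chr15:59611533-59611832, plus strand (GCNT3) and chr10:1737476-1737775, minus strand (ADARB2).
G6PC2: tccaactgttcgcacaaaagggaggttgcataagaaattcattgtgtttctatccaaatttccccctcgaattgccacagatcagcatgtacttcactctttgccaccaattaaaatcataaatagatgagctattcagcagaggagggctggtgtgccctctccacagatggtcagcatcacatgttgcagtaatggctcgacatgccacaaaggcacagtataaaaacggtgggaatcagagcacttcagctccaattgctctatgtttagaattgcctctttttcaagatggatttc
MUC13: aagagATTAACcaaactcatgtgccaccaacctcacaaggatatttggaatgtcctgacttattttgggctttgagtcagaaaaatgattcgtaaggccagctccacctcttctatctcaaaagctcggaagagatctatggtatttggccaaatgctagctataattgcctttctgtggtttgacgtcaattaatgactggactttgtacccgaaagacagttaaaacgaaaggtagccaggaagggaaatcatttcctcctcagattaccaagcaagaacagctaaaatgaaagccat
GCNT3: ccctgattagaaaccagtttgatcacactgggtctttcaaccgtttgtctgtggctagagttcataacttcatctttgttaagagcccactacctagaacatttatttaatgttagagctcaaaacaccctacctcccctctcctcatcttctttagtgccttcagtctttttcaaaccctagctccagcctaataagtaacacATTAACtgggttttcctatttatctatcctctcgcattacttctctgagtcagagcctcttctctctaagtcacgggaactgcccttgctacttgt
ADARB2: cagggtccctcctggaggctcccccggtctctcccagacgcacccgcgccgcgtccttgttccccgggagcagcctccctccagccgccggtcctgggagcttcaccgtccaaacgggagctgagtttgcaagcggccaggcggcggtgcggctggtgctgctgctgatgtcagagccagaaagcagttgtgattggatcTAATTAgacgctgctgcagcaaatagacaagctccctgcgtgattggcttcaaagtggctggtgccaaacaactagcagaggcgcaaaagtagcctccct
RefSeq's start lies inside the longer GENCODE span given above for MUC13 and GCNT3. Windows were found for 21 of the 24 named shared genes: TAATTA stood in 1 of them (ADARB2) and GTTAAT or ATTAAC in 2 (MUC13 and GCNT3). Every one of these windows with a match is printed above, so the printed set does not show how common matches are. Over the 14317 tested genes with a window, 2.54% held TAATTA and 4.34% the HNF1 half-site. G6PC2 held neither, which says only that these letters are not in this window. The table covered 72.3% of shared higher and 76.5% of shared lower genes, under 80%, so promoter content is not compared between the sets.

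CEACAM6, an adhesion molecule of epithelia, had 1.001, 0.924 and 0.407 CPM in ISL1 KO BFP, 1.10, 2.62 and 1.22 in PAX6 KO BFP and 0.472, 0.996 and 1.07 in PDX1 KO BFP, against 30.5 and 18.7 in WT BFP. LGALS4, an intestinal galectin, had 0.405 to 2.25 CPM in the 9 knockout libraries, against 25.2 and 22.4 in WT BFP. B4GALNT2, which makes the Sda sugar of the gut, had 0.653 to 2.53 CPM in the 9 knockout libraries, against 34.8 and 26.5 in WT BFP. Both WT BFP libraries were far above every knockout library in these genes; CEACAM6 has near copies among the CEACAM genes, which may share its reads. DUOXA2, the maturation partner of the mucosal oxidase DUOX2, had 4.17, 3.05 and 2.90 CPM in ISL1 KO BFP, 3.87, 5.84 and 7.38 in PAX6 KO BFP and 7.15, 6.85 and 7.52 in PDX1 KO BFP, against 53.2 and 102 in WT BFP, with ISL1 KO lowest. SLC6A4 (ENSG00000108576 on GRCh38 chromosome 17, 30194319 to 30236002, minus strand), the serotonin transporter, had 1.59, 1.85 and 2.24 CPM in ISL1 KO BFP, 0.412, 0.921 and 0.338 in PAX6 KO BFP and 2.20, 1.71 and 1.24 in PDX1 KO BFP, against 25.2 and 15.7 in WT BFP. PAX6 KO was the lowest group for it, and the fold changes were −3.43 (ISL1 KO), −5.19 (PAX6 KO) and −3.57 (PDX1 KO).

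Receptor, dynein and secreted-protein genes made up the rest. CYSLTR2, a leukotriene receptor, had 0.082, 0.0649 and 0.436 CPM in ISL1 KO BFP, 1.61, 1.17 and 1.59 in PAX6 KO BFP and 0.635, 0.685 and 0.434 in PDX1 KO BFP, against 25.5 and 23.4 in WT BFP, so that ISL1 KO was the lowest and PAX6 KO the highest knockout. DNAH8, an axonemal dynein heavy chain, had 1.49, 2.33 and 1.48 CPM in ISL1 KO BFP, 1.497, 2.75 and 2.14 in PAX6 KO BFP and 0.581, 0.638 and 0.375 in PDX1 KO BFP, against 34.5 and 28.2 in WT BFP. PDX1 KO was the lowest group. IL32, a cytokine, had 1.48 to 6.05 CPM in the 9 knockout libraries, against 44.0 and 34.2 in WT BFP. AHSG, the liver plasma protein fetuin-A, had 0.79 to 4.13 CPM in the 9 knockout libraries, against 21.1 and 28.6 in WT BFP. Outside G6PC2, mean log2 fold changes of the 12 ran from −5.45 (CYSLTR2) to −3.66 (AHSG). All 12 stayed called in all 3 knockouts in each of the 11 fits that left out 1 library.

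Most islet hormone genes fell in all 3 knockouts, but by unequal amounts. Of 7 hormone genes tested 5 were shared lower and none higher (background 6.93% and 6.27%), with a median of −4.96 in the mean contrast beside 0.02 over all genes. These shares of all genes tested are the background for every list below as well. GCG had 87.7, 73.2 and 83.5 CPM in ISL1 KO BFP, 27.7, 15.3 and 72.7 in PAX6 KO BFP and 13613, 17614 and 15085 in PDX1 KO BFP, against 33886 and 47978 in WT BFP. PDX1 KO libraries were nearest to WT BFP (log2 fold change −1.41), and GCG was no longer shared without either WT BFP library, while ISL1 KO and PAX6 KO held a trace. INS, the insulin gene, ran the other way: it had 4465, 4821 and 3361 CPM in ISL1 KO BFP, 1834, 1614 and 1240.2 in PAX6 KO BFP and 367, 310.2 and 171 in PDX1 KO BFP, against 13275 and 10391 in WT BFP, with PDX1 KO lowest. IAPP, which encodes amylin, had 0.082 to 0.498 CPM in the 9 knockout libraries, against 7.83 and 7.52 in WT BFP. PYY, an enteroendocrine and islet peptide, had 0.771, 0.389 and 1.10 CPM in ISL1 KO BFP, 0.356, 0.23 and 0.557 in PAX6 KO BFP and 15.8, 20.7 and 15.9 in PDX1 KO BFP, against 90.4 and 75.2 in WT BFP. SST was the fifth, at 0.361, 0.551 and 0.523 CPM in ISL1 KO BFP, 10.1, 4.38 and 15.4 in PAX6 KO BFP and 24.4, 23.7 and 6.65 in PDX1 KO BFP, against 87.8 and 132 in WT BFP. ISL1 KO was lowest for SST and PDX1 KO highest of the knockouts for PYY. PPY was called in ISL1 KO and PAX6 KO, and GHRL, the ghrelin gene, moved in opposite directions: its log2 fold changes were −0.92 in ISL1 KO and 5.29 in PAX6 KO.

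Among 27 beta cell markers 10 were shared lower and 3 higher, and among 20 alpha cell markers 8 and 1. Besides hormones and G6PC2 the shared lower markers held ERO1B, an oxidase for disulfide bonds of proinsulin, with 92.1 to 165 CPM in the 9 knockout libraries, against 1011 and 1315 in WT BFP. CASR, the calcium-sensing receptor, had 18.2, 28.0 and 22.2 CPM in ISL1 KO BFP, 3.50, 1.74 and 3.53 in PAX6 KO BFP and 4.14, 2.23 and 3.93 in PDX1 KO BFP, against 138 and 108.8 in WT BFP, lowest in PAX6 KO and PDX1 KO. SLC30A8, the zinc transporter of insulin granules, had 44.5, 56.6 and 63.7 CPM in ISL1 KO BFP, 56.7, 32.3 and 44.3 in PAX6 KO BFP and 169, 159 and 165 in PDX1 KO BFP, against 348 and 406 in WT BFP, with PDX1 KO the least reduced. ENTPD3 and the glucose transporter gene SLC2A2 fell too, by 4.38 and 2.73 on the log2 scale in the mean. On the alpha side GPR119, a lipid-sensing receptor, had 7.20, 15.1 and 7.77 CPM in ISL1 KO BFP, 33.3, 26.5 and 34.5 in PAX6 KO BFP and 64.1, 51.9 and 57.7 in PDX1 KO BFP, against 185 and 231 in WT BFP, lowest in ISL1 KO. TM4SF4, a membrane protein of alpha cells, had 40.2 to 65.6 CPM in the 9 knockout libraries, against 208 and 168 in WT BFP. Delta cell markers had 4 of 11 shared lower (SST, CASR, RBP4 and HHEX) and none higher. Gamma and epsilon cell markers had 3 of 12 shared lower (ETV1, SERTM1 and AQP3), and 5 after the correction for GC content. The 3 shared higher beta cell markers were NKX6-1, MNX1 and SYT13, and 1 of them was shared without WT BFP replicate 1. Summed beta cell marker levels were 2584 to 7034 CPM over the 9 knockout libraries, against 14258 to 16770 CPM in WT BFP. In WT BFP most of this sum was INS, whose levels are given above.

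Several genes of serotonin-making cells rose. Among 11 enterochromaffin-like cell markers 6 were shared higher and 2 lower, with a median of 1.02. TPH1, the rate-limiting enzyme of serotonin synthesis, had 145, 181 and 236 CPM in ISL1 KO BFP, 147, 94.6 and 144 in PAX6 KO BFP and 377, 478 and 475 in PDX1 KO BFP, against 29.5 and 56.9 in WT BFP. LMX1A, a homeobox factor of serotonin-making cells, had 268, 287 and 321 CPM in ISL1 KO BFP, 193, 135 and 147 in PAX6 KO BFP and 516, 537 and 461 in PDX1 KO BFP, against 82.8 and 88.4 in WT BFP. PDX1 KO was highest for both, and PAX6 KO was the knockout nearest to WT BFP for LMX1A. CBLN1, a secreted synaptic organiser, had 42.4 to 167 CPM in the 9 knockout libraries, against 17.99 and 24.9 in WT BFP; SLC18A1, FEV and DDC rose as well. The transporter SLC6A4 and the oxidase MAOB of the same list fell. FEV was no longer shared without WT BFP replicate 1, and DDC and MAOB without either WT BFP library. Summed levels of the list overlapped, at 15425 to 46012 CPM in the knockouts and 18835 to 22788 CPM in WT BFP, and CHGA, which took the most counts in the list, was not called in the mean (log2 fold change 0.46).

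Islet transcription factors had 7 of 30 shared higher and 2 lower, and endocrine progenitor genes 6 of 16 and 1. NKX6-1, a beta cell homeobox factor, had 191, 189 and 238 CPM in ISL1 KO BFP, 139, 81.5 and 127 in PAX6 KO BFP and 285, 264 and 324 in PDX1 KO BFP, against 41.6 and 72.6 in WT BFP. MNX1, a homeobox factor of beta cells and motor neurons, had 202, 198 and 284 CPM in ISL1 KO BFP, 150.5, 116.4 and 125.3 in PAX6 KO BFP and 266, 355 and 272 in PDX1 KO BFP, against 50.8 and 78.0 in WT BFP. All knockout libraries exceeded WT BFP for both, with PDX1 KO highest. NKX2-2, INSM1, FEV, MYT1 and RFX3 completed the 7, and HHEX and ISL1 were the 2 lower. INSM1, a zinc finger factor of endocrine differentiation, had 1093 to 2804 CPM in the 9 knockout libraries, against 586 and 893 in WT BFP. FEV, a factor of serotonin-making cells, had 559.8 to 1592 CPM in the 9 knockout libraries, against 347 and 409 in WT BFP. The progenitor genes besides NKX2-2, INSM1 and FEV were HES6, SOX4 and RCOR2, with mean log2 fold changes of 1.005, 0.61 and 1.37. NEUROG3, the trigger of endocrine differentiation, was called in ISL1 KO and PAX6 KO, with log2 fold changes of 1.23, 2.80 and, in PDX1 KO, −0.42. Both counts depended on WT BFP: without replicate 1 the transcription factor list had 0 shared higher genes and the progenitor list 1, which is none of the 6 (6 and 5 without replicate 3), by edgeR.

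**Figure D3:**
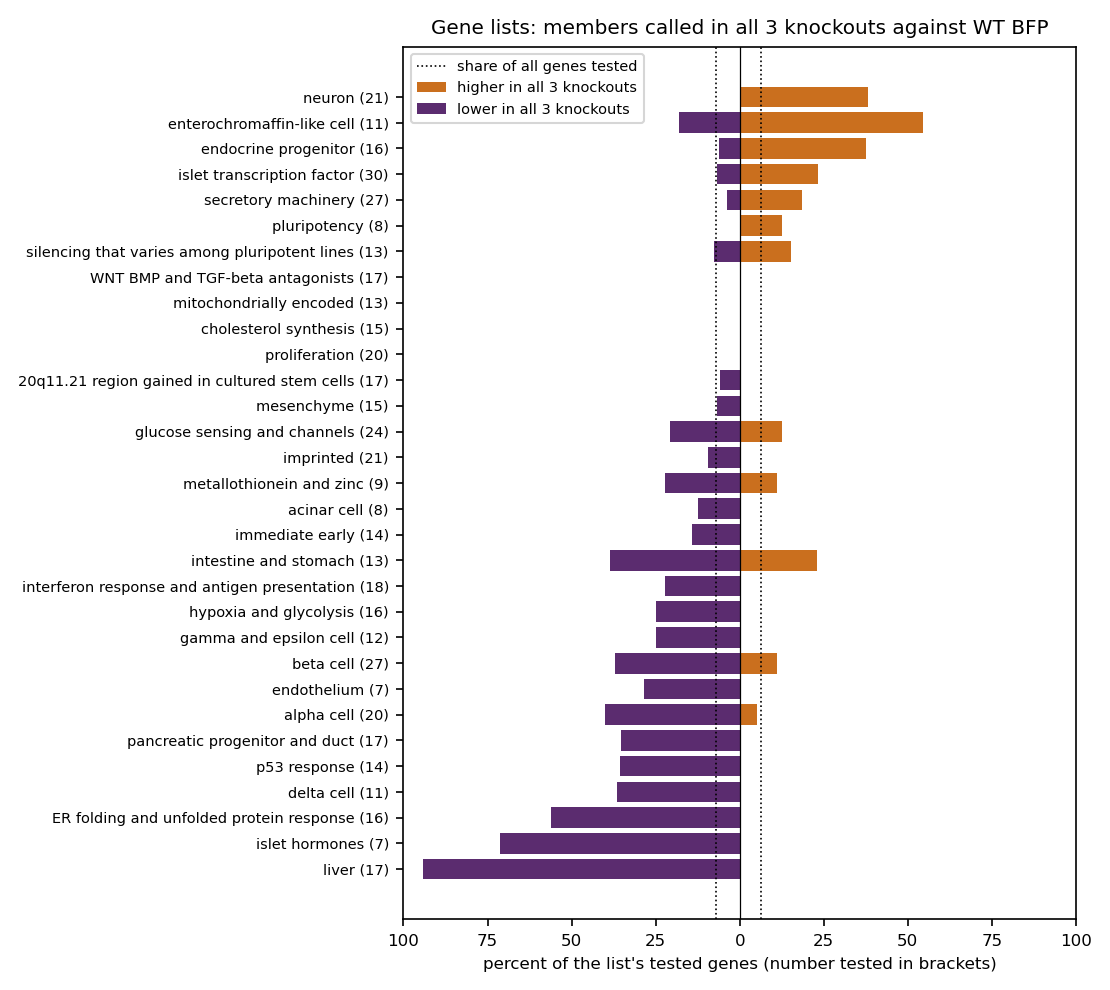
Each bar gives the percent of a list's tested genes (number in brackets) that were higher (right) or lower (left) in all 3 knockouts, and dotted lines mark the share of all genes tested, 6.27% and 6.93%. Liver, islet hormone and ER folding genes reach farthest to the left, and enterochromaffin-like cell, neuron and endocrine progenitor genes to the right.

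Liver-type genes were lower almost throughout: 16 of 17 were shared lower and none higher, with a median of −1.94. The exception was APOH, at log2 fold changes of 1.35 (ISL1 KO), −0.37 (PAX6 KO) and −3.48 (PDX1 KO). VTN, the plasma adhesion protein vitronectin, had 106 to 229 CPM in the 9 knockout libraries, against 475 and 576 in WT BFP. TTR, which carries thyroid hormone and is also made by alpha cells, had 420.2, 379 and 397 CPM in ISL1 KO BFP, 1026, 761 and 1257 in PAX6 KO BFP and 1283, 1428 and 1248 in PDX1 KO BFP, against 3491 and 3058 in WT BFP. TF, the iron carrier transferrin, had 9.86, 10.7 and 9.71 CPM in ISL1 KO BFP, 136, 152 and 199.8 in PAX6 KO BFP and 160.4, 132 and 175 in PDX1 KO BFP, against 253 and 444 in WT BFP, far lower in ISL1 KO than in the other knockouts. FGA, a fibrinogen chain, had 328 to 649.5 CPM in the 9 knockout libraries, against 1756 and 2155 in WT BFP. RBP4, SERPINA1, ALB and APOB fell by 3.03, 1.68, 2.50 and 1.94 on the log2 scale in the mean. Summed over the list, levels were 7455 to 14615 CPM in the knockouts and 27532 to 30250 CPM in WT BFP. Whether liver-type cells were fewer or islet cells held less of these RNAs was not tested. TTR, SERPINA1 and RBP4 also stand in islet cell lists here. Without WT BFP replicate 1 the list had 14 shared lower genes, and without replicate 3 it had 13, TF no longer among them.

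Gut and duct genes were mixed. Of 13 intestine and stomach genes 5 were shared lower and 3 higher. GAST, the gastrin gene, had 68.5, 72.0 and 36.0 CPM in ISL1 KO BFP, 24.2, 25.1 and 17.1 in PAX6 KO BFP and 6.35, 7.33 and 4.95 in PDX1 KO BFP, against 336 and 190.0 in WT BFP. CDH17 and FABP1 fell with MUC13 and LGALS4, by 2.84 and 2.28 on the log2 scale. SOX2, a stem cell, neural and foregut factor, had 12.04, 11.4 and 14.9 CPM in ISL1 KO BFP, 38.4, 28.3 and 46.3 in PAX6 KO BFP and 30.4, 39.1 and 45.7 in PDX1 KO BFP, against 4.20 and 7.30 in WT BFP, lowest in WT BFP. The trefoil genes TFF3 and TFF2 rose as well; without either WT BFP library, 1 of the 3 higher genes was shared (TFF3 without replicate 1, SOX2 without replicate 3), and FABP1 was lost without replicate 3. Pancreatic progenitor and duct genes had 6 of 17 shared lower and none higher: ANXA4, CA2, CLDN4, SPP1, EPCAM and CFTR. CA2, a carbonic anhydrase of duct cells, had 50.7 to 89.1 CPM in the 9 knockout libraries, against 238 and 243 in WT BFP. CLDN4, a tight junction protein, had 162 to 321 CPM in the 9 knockout libraries, against 605 and 644 in WT BFP. SOX9 and KRT19 were not called in the mean. Of 8 acinar genes BHLHA15 alone was shared lower (3.05 to 7.65 CPM in the 9 knockout libraries, against 20.4 and 22.9 in WT BFP).

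Genes of protein folding lay on the lower side in every knockout. Of 16 genes of ER folding and the unfolded protein response 9 were shared lower and none higher, with a median of −0.80. HSPA5, the main ER chaperone BiP, had 1594, 1654 and 1477 CPM in ISL1 KO BFP, 1479, 1459 and 1514 in PAX6 KO BFP and 1205, 1291 and 1289 in PDX1 KO BFP, against 2518 and 2677 in WT BFP. PDIA6, a disulfide isomerase, had 456 to 712 CPM in the 9 knockout libraries, against 1078 and 1222 in WT BFP. HSP90B1, the ER form of HSP90, had 981 to 1432 CPM in the 9 knockout libraries, against 2009 and 2054 in WT BFP. Each of these 3 genes was lowest in PDX1 KO, and WT BFP was above all knockouts. DDIT3, DNAJB9, DNAJC3, XBP1, SDF2L1 and PDIA4 were the others, of which XBP1 and SDF2L1 were not shared without WT BFP replicate 3. Summed levels of the list were 4676 to 6434 CPM in the knockouts and 9170 to 9832 CPM in WT BFP.

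Of 14 genes of the p53 response 5 were shared lower and none higher, and 9 after the correction for GC content. CDKN1A, a cell cycle inhibitor, had 64.0, 52.5 and 57.9 CPM in ISL1 KO BFP, 73.5, 76.9 and 90.3 in PAX6 KO BFP and 116.99, 121.3 and 110.9 in PDX1 KO BFP, against 199 and 232 in WT BFP. GDF15, a stress hormone, had 61.4 to 106 CPM in the 9 knockout libraries, against 235 and 333 in WT BFP. PHLDA3, FAS and MDM2 were the others. Hypoxia and glycolysis genes had 4 of 16 shared lower (LDHA, ADM, P4HA1 and PGK1) and none higher, and 2 without WT BFP replicate 3 or with scaling by library size alone, P4HA1 and PGK1 being lost in both. LDHA, lactate dehydrogenase A, had 401, 386 and 315 CPM in ISL1 KO BFP, 196, 252 and 236 in PAX6 KO BFP and 175, 189 and 180.1 in PDX1 KO BFP, against 595 and 784 in WT BFP, and was highest in WT BFP and least reduced in ISL1 KO. Of 18 interferon and antigen presentation genes 4 were shared lower, HLA-B, HLA-C and IFIT2 among them, and none higher. The list was mixed, with 6 called higher and 9 lower in the mean. In ISL1 KO 7 were higher and 4 lower, in PAX6 KO 0 and 11, and in PDX1 KO 7 and 9. HLA-B had 67.7 to 140.4 CPM in the 9 knockout libraries, against 337 and 339 in WT BFP; the HLA genes are alike in sequence, and reads may be shared among them. IFI6 of that list was called higher in ISL1 KO and PDX1 KO, with 504, 439 and 677 CPM in ISL1 KO BFP, 190.4, 139 and 179 in PAX6 KO BFP and 522, 711 and 599 in PDX1 KO BFP, against 115.9 and 157 in WT BFP. Immediate early genes had 2 of 14 shared lower (IER3 and KLF4), and KLF4 was not shared without WT BFP replicate 1.

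Neuronal genes rose in part. Of 21 tested 8 were shared higher and none lower (4 higher without WT BFP replicate 1, 6 without replicate 3), with a median of 0.43. TUBB3, a neuronal tubulin, had 241, 215 and 258 CPM in ISL1 KO BFP, 286, 234 and 313 in PAX6 KO BFP and 224, 258 and 216 in PDX1 KO BFP, against 112.6 and 127 in WT BFP. L1CAM, an axonal adhesion molecule, had 11.7 to 35.4 CPM in the 9 knockout libraries, against 5.79 and 6.56 in WT BFP. NCAM1, SYN1, ELAVL3, RBFOX3 and POU4F1 were also among the 8; POU4F1, a sensory neuron factor, had 0.472 to 2.02 CPM in the 9 knockout libraries, against 0.159 and 0.082 in WT BFP. MAP2, SNAP25, GAP43 and SYT1 were not called in the mean, and NEFM was called lower in ISL1 KO and PDX1 KO. Summed levels of the list overlapped, at 909.6 to 1542 CPM in the knockouts and 901 to 1096 CPM in WT BFP. Secretory machinery had 5 of 27 shared higher and 1 lower. SYT13, a synaptotagmin, had 112.8 to 254 CPM in the 9 knockout libraries, against 46.7 and 51.1 in WT BFP. SV2A, a vesicle glycoprotein, had 42.8 to 98.4 CPM in the 9 knockout libraries, against 23.9 and 33.7 in WT BFP, and CADPS, UNC13A and RAB3A rose too. The lower gene was SCG5, a chaperone of a prohormone convertase, at 151 to 602 CPM in the 9 knockout libraries, against 1026 and 1470.5 in WT BFP. That count of higher genes was 1 without WT BFP replicate 1, 2 without replicate 3, 2 after the correction for GC content and 8 with scaling by library size alone. Glucose sensing and channel genes had 3 of 24 shared higher (SCN3A and CACNA1H among them) and 5 lower (G6PC2, FFAR1, GPR119, SLC30A8 and SLC2A2), with 2 and 1 higher without WT BFP replicate 1 and replicate 3, and 6 higher with scaling by library size alone.

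Several lists had few shared genes or none, beside 6.27% of all genes tested that were shared higher and 6.93% shared lower. Proliferation genes had 0 of 20 shared in either direction by edgeR, and 0 called in the mean: 4 were higher in ISL1 KO and 15 lower in PDX1 KO. Cholesterol synthesis genes had 0 of 15 shared, with 9 lower in ISL1 KO and 5 higher in PDX1 KO. None of 13 mitochondrially encoded genes and none of 17 WNT, BMP and TGF-beta antagonists was shared. Of 15 mesenchyme genes TAGLN was shared lower, of 7 endothelium genes KDR and PECAM1 were, and of 8 pluripotency genes SOX2 was shared higher. SOX2, KDR and PECAM1 were not shared without WT BFP replicate 1, nor PECAM1 without replicate 3. PECAM1 was also near the floor, with 19 and 16 counts in WT BFP and 0 to 4 in the knockout libraries. Metallothionein and zinc genes had MT1F higher and SLC30A8 and MT1G lower of 9 (MT1G not without either WT BFP library), and imprinted genes had PLAGL1 and GNAS lower of 21. GNAS, the stimulatory G protein subunit, had 866, 911 and 1018 CPM in ISL1 KO BFP, 817, 799.8 and 829 in PAX6 KO BFP and 1356, 1590.4 and 1192 in PDX1 KO BFP, against 2305 and 3637 in WT BFP. POU5F1 and LIN28B, genes of undifferentiated stem cells, were not called in the mean. Of 17 genes in 20q11.21, a region that cultured stem cells can gain, ID1 alone was shared lower. The counts for the imprinted and 20q11.21 lists are near the share of all genes that were shared lower.

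A list of 13 genes whose silencing varies among pluripotent lines had 2 shared higher (FAM19A5 and PTPRT) and 1 lower (TCERG1L); FAM19A5 was not shared without WT BFP replicate 3. CAT, catalase, had 98.7, 112.8 and 114 CPM in ISL1 KO BFP, 0.973, 0.724 and 0.979 in PAX6 KO BFP and 142, 159 and 150.3 in PDX1 KO BFP, against 69.4 and 78.8 in WT BFP, and was nearly absent in PAX6 KO alone. TSPYL5 had 0.295, 0.0811 and 0.232 CPM in ISL1 KO BFP, 55.2, 43.1 and 46.6 in PAX6 KO BFP and 94.6, 85.8 and 93.9 in PDX1 KO BFP, against 39.6 and 41.4 in WT BFP, and was nearly absent in ISL1 KO alone. ZNF585A of the same list is described with the genes that ISL1 KO drove.

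In ISL1 KO a set of genes stood apart from all other BFP libraries. IRX3, an Iroquois homeobox factor, had 80.2, 73.8 and 88.4 CPM in ISL1 KO BFP, against 13.7, 20.9 and 12.1 in PAX6 KO BFP, 22.9, 22.003 and 19.7 in PDX1 KO BFP and 21.2 and 15.9 in WT BFP. The difference of ISL1 KO from the mean of the other 2 knockouts was 2.14 ± 0.15 (adjusted p = 6.51e-06). PGM5, a phosphoglucomutase-like protein of cell junctions, had 9.65, 11.3 and 15.1 CPM in ISL1 KO BFP, against 1.13 to 4.03 over the other 8 libraries. PPP1R12C, a myosin phosphatase subunit, had 21.997, 16.5 and 22.9 CPM in ISL1 KO BFP, against 4.16 to 7.56 over the other 8 libraries. The 3 ISL1 KO libraries were the highest of the 11 in each of these 3 genes.

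Among losses of ISL1 KO, ZNF585A, a zinc finger gene, had 0.115, 0.162 and 0.0436 CPM in ISL1 KO BFP, against 16.7, 13.5 and 17.2 in PAX6 KO BFP, 19.2, 21.3 and 19.7 in PDX1 KO BFP and 14.2 and 15.9 in WT BFP. The ISL1 KO libraries were near 0 and all others close together, a difference of −7.38 ± 0.27 (adjusted p = 1.67e-08). SHISAL2B, a small membrane protein, had 0.0164, 0.0486 and 0.0726 CPM in ISL1 KO BFP, against 0.967 to 13.1 over the other 8 libraries. LSP1P5, a pseudogene whose reads may be shared with related copies, had 0.312, 0.422 and 0.203 CPM in ISL1 KO BFP, against 4.91 to 8.79 over the other 8 libraries. NEK11, a kinase of the DNA damage checkpoint, had 0.492, 0.892 and 1.21 CPM in ISL1 KO BFP, against 4.72 to 9.97 over the other 8 libraries. None of the other 8 libraries reached down to the ISL1 KO values in these genes.

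PAX6 KO carried other genes alone among the BFP libraries. HELT, a brain bHLH repressor, had 15.1, 10.7 and 17.5 CPM in PAX6 KO BFP, against 0.0328, 0.0649 and 0.0726 in ISL1 KO BFP, 0.308, 0.451 and 0.0197 in PDX1 KO BFP and 0.139 and 0 in WT BFP. It was nearly silent outside PAX6 KO, and the difference from the mean of the other 2 knockouts was 6.83 ± 0.48 (adjusted p = 5.1e-06). PRDM14, a regulator of germ cells and stem cells, had 32.3, 20.96 and 27.5 CPM in PAX6 KO BFP, against 2.53, 3.24 and 2.15 in ISL1 KO BFP, 3.88, 3.999 and 1.72 in PDX1 KO BFP and 2.90 and 3.58 in WT BFP. COL12A1, a fibril-associated collagen, had 41.3, 34.3 and 27.4 CPM in PAX6 KO BFP, against 2.05 to 4.78 over the other 8 libraries. TMEM132C, a membrane protein, had 18.2, 10.1 and 10.7 CPM in PAX6 KO BFP, against 0.651 to 2.27 over the other 8 libraries. All 4 were highest in the PAX6 KO libraries. On the lower side C7, a complement component, had 38.7, 20.7 and 43.9 CPM in PAX6 KO BFP, against 81.0 to 206 over the other 8 libraries. KIF12, a kinesin, had 42.9, 46.3 and 46.5 CPM in PAX6 KO BFP, against 114 to 195 over the other 8 libraries. FTCD, a histidine-breakdown enzyme of liver, had 27.6, 22.6 and 26.4 CPM in PAX6 KO BFP, against 35.3 to 74.6 over the other 8 libraries. SLC6A19, an amino acid transporter, had 4.60, 5.81 and 2.08 CPM in PAX6 KO BFP, against 9.41 to 43.2 over the other 8 libraries; its call was lost when ISL1 KO replicate 1 or 2 or PAX6 KO replicate 1 or 3 was left out (adjusted p = 0.0517, 0.0579, 0.0779 and 0.103).

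PDX1 KO drove the most genes. RGS7BP, a G protein signalling partner, had 41.2, 48.0 and 65.1 CPM in PDX1 KO BFP, against 6.91, 6.53 and 7.17 in ISL1 KO BFP, 4.90, 4.18 and 6.77 in PAX6 KO BFP and 4.32 and 4.48 in WT BFP. The PDX1 KO libraries were far above the rest, a difference of 3.09 ± 0.16 (adjusted p = 6.48e-07) from the other 2 knockouts. RERG, a small GTPase, had 59.6, 69.1 and 65.9 CPM in PDX1 KO BFP, against 9.29 to 18.7 over the other 8 libraries. ARC, an activity-induced synaptic gene, had 134, 188 and 169 CPM in PDX1 KO BFP, against 13.7 to 61.7 over the other 8 libraries. CA8, a carbonic anhydrase-related protein, had 56.3, 76.0 and 86.3 CPM in PDX1 KO BFP, against 13.3 to 24.4 over the other 8 libraries. The PDX1 KO libraries were highest in all 4. On the lower side CHODL, a lectin-like membrane protein, had 4.86, 5.15 and 4.03 CPM in PDX1 KO BFP, against 13.3 to 37.7 over the other 8 libraries. CHRNB4, a nicotinic receptor subunit, had 4.17, 2.61 and 1.46 CPM in PDX1 KO BFP, against 8.41 to 24.1 over the other 8 libraries. SLCO2A1, a prostaglandin transporter, had 1.49, 0.778 and 1.36 CPM in PDX1 KO BFP, against 1.65 to 10.5 over the other 8 libraries. The long noncoding RNA SMANTIS had 1.54, 1.34 and 1.62 CPM in PDX1 KO BFP, against 6.16 to 12.04 over the other 8 libraries. PDX1 KO held the 3 lowest libraries in each of these 4 genes; the rule for naming genes required this of all genes in these 3 groups.

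**Figure D4:**
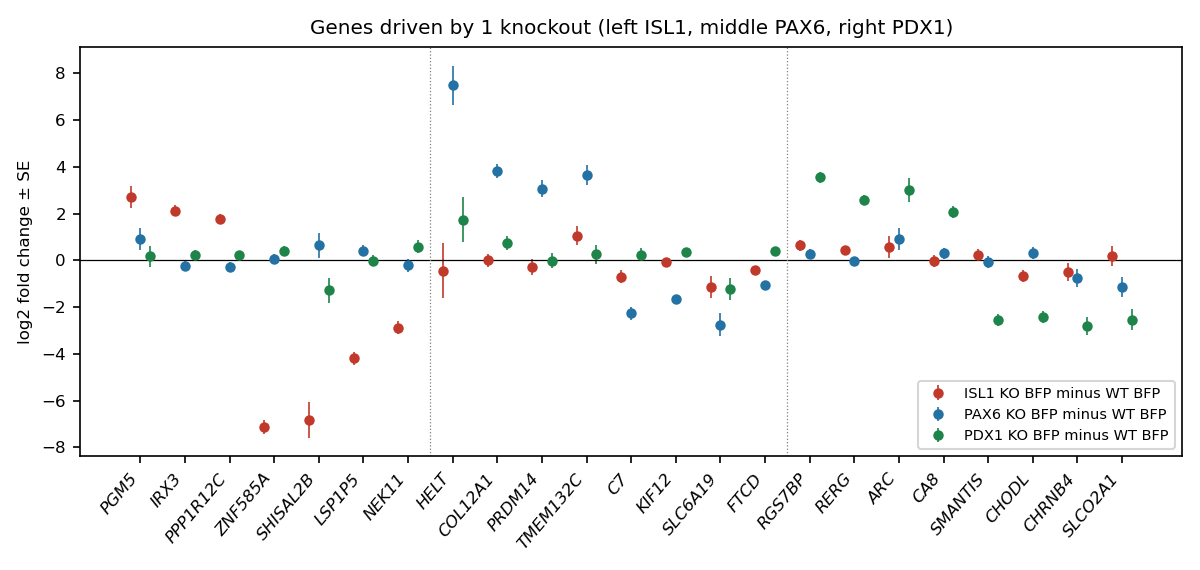
Points give log2 fold changes ± SE of each knockout against WT BFP for the genes driven by ISL1 KO (left), PAX6 KO (middle) and PDX1 KO (right), 7, 8 and 8 genes. In each block 1 colour lies away from 0 and the other 2 nearer to it, as with ZNF585A at −7.13 in ISL1 KO.

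In 213 genes, 1% of those tested, 2 knockouts were called in opposite directions. CRH, corticotropin-releasing hormone, had 1.10, 1.13 and 1.32 CPM in ISL1 KO BFP, 289.7, 214 and 342 in PAX6 KO BFP and 5.21, 6.80 and 3.06 in PDX1 KO BFP, against 21.96 and 24.3 in WT BFP. PAX6 KO was far above and ISL1 KO and PDX1 KO below WT BFP, with log2 fold changes of −4.28 (ISL1 KO), 3.61 (PAX6 KO) and −2.20 (PDX1 KO) and a mean of −0.96 ± 0.21. LINC00967, a noncoding RNA on chromosome 8 as CRH is, had 0, 0 and 0 CPM in ISL1 KO BFP, 1.07, 0.543 and 1.47 in PAX6 KO BFP and 0.0726, 0.0311 and 0.0197 in PDX1 KO BFP, against 0.0397 and 0.164 in WT BFP; both of its calls rest on WT BFP, since ISL1 KO was lost without replicate 3 (adjusted p = 0.136) and PAX6 KO without replicate 1 (adjusted p = 0.0776). CHCHD2, a mitochondrial protein gene with related pseudogenes that may share its reads, had 143, 129 and 139 CPM in ISL1 KO BFP, 0.0187, 0.0165 and 0 in PAX6 KO BFP and 0, 0.0156 and 0.0197 in PDX1 KO BFP, against 0.139 and 0.191 in WT BFP, so it was abundant in ISL1 KO and nearly silent in the other 3 groups, WT BFP included. ARHGAP36, an activator of hedgehog signalling, had 0.377, 0.535 and 0.828 CPM in ISL1 KO BFP, 18.8, 9.87 and 22.3 in PAX6 KO BFP and 0, 0 and 0.0197 in PDX1 KO BFP, against 0.655 and 0.765 in WT BFP, high in PAX6 KO and 1 count in all of PDX1 KO.

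The shared genes were then looked at in libraries that had not chosen them: 3 ISL1 KO, 3 PAX6 KO and 2 PDX1 KO libraries against 2 WT libraries labelled ISL1 OE, which had received an ISL1 vector and were fitted apart. ISL1 RNA does not check that label, being 60.6, 71.5 and 82.8 CPM in ISL1 KO ISL1 OE and 324 and 307 CPM in WT ISL1 OE. PAX6 KO ISL1 OE replicate 3 and PDX1 KO ISL1 OE replicate 4 stand apart from their groups, as was known from earlier results of these data. With all 10 libraries 1087 of 1325 shared higher genes lay above 0 and 1259 of 1462 shared lower genes below 0. Few were called, 0 higher and 29 lower (background 0.00465% and 0.218% of 21522 genes), though 189 and 426 passed an unadjusted p under 0.05 in edgeR. Without those 2 libraries, which leaves PDX1 KO with a lone library that is assumed to vary like the others, 680 of 1325 were called higher and 1018 of 1465 lower, 51.3% and 69.5%, against a background of 9.08% and 12.6% of 22215 genes. The median log2 fold changes were then 0.52 and −0.73, and 1 gene of each set was called the other way. Both sets of libraries come from the same 4 lines, so differences between lines cannot be told apart from the knockouts there either.

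Single genes varied in how far they kept their change. MIAT had 30.9, 36.9 and 45.9 CPM in ISL1 KO ISL1 OE, 26.2 and 30.0 in PAX6 KO ISL1 OE replicates 1 and 2 and 17.99 in PDX1 KO ISL1 OE replicate 2, against 3.48 and 4.95 in WT ISL1 OE. Over these 8 libraries its log2 fold change was 2.67 ± 0.21, adjusted p = 2.79e-05. Of the libraries left out, PAX6 KO ISL1 OE replicate 3 had 8.86 CPM of MIAT, above both WT ISL1 OE libraries, and PDX1 KO ISL1 OE replicate 4 had 1.69, below both. CYSLTR2 (−4.14 ± 0.35, adjusted p = 4e-05), DUOXA2 (−3.77 ± 0.20, adjusted p = 3.25e-06) and ROS1 (3.13 ± 0.42, adjusted p = 0.000621) were also called over these 8 libraries. PDX1 KO ISL1 OE replicate 4, left out there, had 147 CPM of DUOXA2, above the 66.9 and 86.6 CPM of WT ISL1 OE, the other way from the knockout mean. Its 0.323 CPM of ROS1 lay between the 0.555 and 0.146 CPM of WT ISL1 OE. DUOXA2 was not alone in this library. LGALS4 (82.9 CPM against 6.32 and 6.92), IL32, AHSG, DNAH8, GCNT3, MUC13 and B4GALNT2, also named as lower, exceeded both WT ISL1 OE libraries there. CEACAM6 lay between them, and G6PC2, CYSLTR2 and SLC6A4 stayed below both. Of the genes named as higher, DLX5 and B3GAT1 exceeded both there, and all others except ROS1 lay below both. KIRREL3 was less changed: it had 1.31, 1.48 and 1.39 CPM in ISL1 KO ISL1 OE, which overlaps the 1.46 and 1.35 CPM of WT ISL1 OE. SDK2 was not called (0.48 ± 0.23, adjusted p = 0.168). Of the 12 genes named as higher 11 were called higher in the 8 libraries, and of the 12 named as lower all 12 were called lower. By list, over the same 8 libraries, 13 of the 16 shared lower liver genes, all 5 hormone genes, all 6 enterochromaffin-like and all 6 progenitor genes were called the same way, and 0 of the 5 shared higher secretory machinery genes were, by edgeR. In the library left out from PDX1 KO, all 5 shared hormone genes lay the other way. PDX1 KO ISL1 OE replicate 4 had 99596 CPM of GCG against 30964 and 28169.5 in WT ISL1 OE, and 47180.5 CPM of INS against 15064 and 12312. It also had 303 CPM of PYY against 80.7 and 89.1 in WT ISL1 OE, and 328 CPM of SST against 144 and 137. For IAPP it had 18.5 CPM against 8.54 and 9.60 in WT ISL1 OE. All 5 of these genes were thus above both WT ISL1 OE libraries in PDX1 KO ISL1 OE replicate 4. Other lists had such genes in that library too. The liver genes TTR (12928 CPM against 3892 and 3159 in WT ISL1 OE), VTN, TF, FGA, RBP4 and AHSG were above both WT ISL1 OE libraries. TPH1, LMX1A and INSM1 (237 CPM against 674 and 536) were below both, whereas CBLN1 and FEV stayed above both. Genes named as driven by 1 knockout did not all stay particular to it in the ISL1 OE libraries. HELT did, at 10.3, 8.76 and 48.6 CPM in PAX6 KO, against 0.699 or less elsewhere. PRDM14 had 70.0, 53.6 and 42.6 CPM in PAX6 KO. It had 73.3, 63.4 and 52.0 in ISL1 KO and 48.5 and 49.4 in WT. SMANTIS had 17.1 and 33.0 CPM in PDX1 KO, above the 12.4 and 13.7 in WT. These values were not tested. In a fit of all 21 libraries at once, which includes the 2 that stand apart, 142 genes were shared higher and 397 lower (3174 shared in all without those 2); 7 liver genes, 8 beta cell markers, 5 ER folding genes, 1 islet hormone gene and 0 hypoxia genes were then shared lower, and 2 enterochromaffin-like, 3 neuronal, 0 islet transcription factor and 0 endocrine progenitor genes higher, by edgeR.

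**Figure D5:**
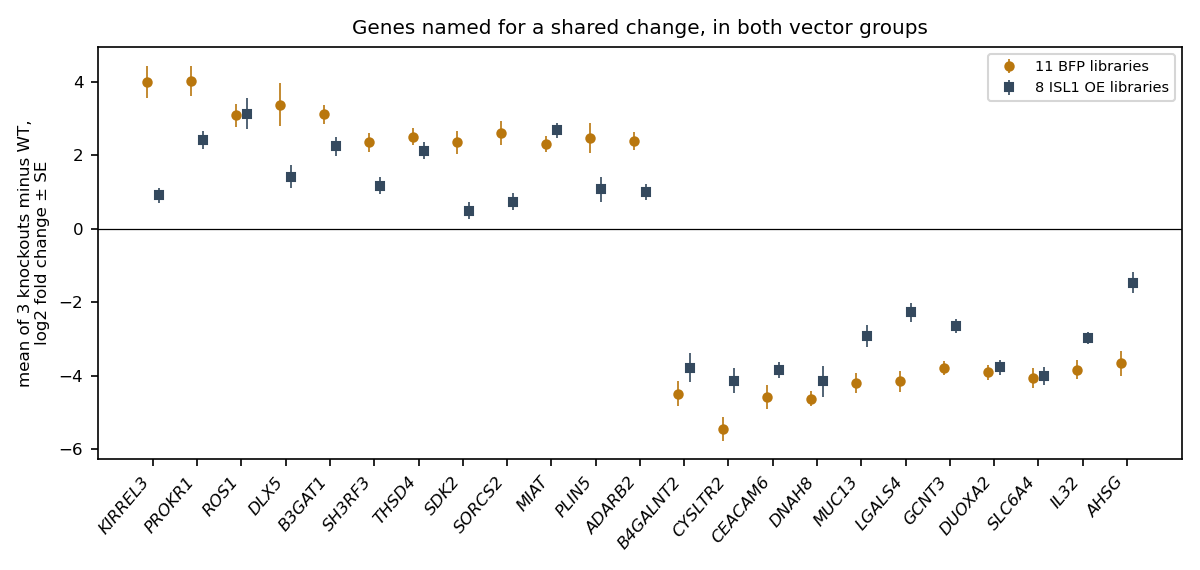
Log2 fold changes ± SE of the knockout mean against WT in the 11 BFP libraries (circles) and in the 8 libraries labelled ISL1 OE (squares), for 23 of the 24 genes named as shared; G6PC2 is left out because PAX6 KO held no count of it. All squares lie on the same side of 0 as the circles, most of them nearer to 0, and SDK2 at 0.48 is nearest.

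Shared genes need not change equally. A test of any difference among the 3 knockouts, without WT BFP, called 357 of the 1329 shared higher genes (26.9%) and 507 of the 1470 shared lower genes (34.5%), beside 28.6% of all genes tested. A call in it was thus not particular to shared genes. GCNT3 was the most even of the 24 named shared genes by that test (−3.91 (ISL1 KO), −3.80 (PAX6 KO) and −3.68 (PDX1 KO), adjusted p of any difference = 0.764). GCG differed far more, at −8.97 (ISL1 KO), −10.05 (PAX6 KO) and −1.41 (PDX1 KO). By type, 88.0% of shared higher and 92.1% of shared lower genes were protein coding, against 75.1% of all genes tested.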

How the data were processed

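Bulk RNA sequencing of H1-derived islet cells gave 1 table of estimated counts per gene, deposited by the authors with 4 lane columns per library; per the submitters' processing notes reads were mapped with STAR 1.6.1 to GRCh38, and the counting program is not stated there. The labels name a SMART-Seq v4 kit and no strand setting, so reads of overlapping genes on opposite strands may not be separated. Lanes were summed and expected counts rounded to whole numbers; 12 columns (3 libraries) match no sample used here and were left out. Coordinates come from GENCODE 29, matched for 34390 of 38592 genes.

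The 11 BFP libraries were fitted in R 4.3.3 with edgeR 4.0.16 (filterByExpr, TMM, quasi-likelihood F test, Benjamini-Hochberg adjusted p under 0.05 over 21200 genes; SE is the fold change over the root of F). DESeq2 1.42.0 was an alternative, beside other scalings, filters, blocks and leaving out each library. The scripts were tested on simulated data. Genes, the 31 lists and this fit of BFP libraries alone, where an earlier fit of these data had used all 21 libraries, were chosen with earlier results of these data known. Genes were named by rule: 12 shared higher and 12 lower with the largest smallest fold change in the 3 knockouts, and 4 higher and 4 lower per driving knockout by difference from the other knockouts, both with at least 2 as their mean log2 CPM and no overlap between groups; and, with neither limit, 4 opposed genes and up to 4 per list by adjusted p; some genes of these sets are not reported here. Other list members are named to complete a count or as exceptions, after their values were seen. List counts are given with no test of the list. Promoter windows are from RefSeq on GRCh38.p14.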

Additional observations from a re-analysis of the deposited data

Results flagged for a closer look

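Of 213 genes called in opposite directions in 2 knockouts against the same WT BFP libraries, 4 were named. A test among the knockouts that uses no WT BFP library called each of these 4. CHCHD2 was high in ISL1 KO and at 2 counts in all of PAX6 KO and 2 counts in all of PDX1 KO, with an adjusted p of any difference among the knockouts of 8.55e-12 by edgeR. CRH was high in PAX6 KO and low in ISL1 KO and PDX1 KO (adjusted p = 1.76e-08 by edgeR). ARHGAP36 was high in PAX6 KO, with 1 count in all of PDX1 KO (adjusted p = 7.53e-07 by edgeR). LINC00967, at 0 counts in ISL1 KO, was highest in PAX6 KO (adjusted p = 0.000249 by edgeR). These genes were picked for the size of their opposed changes, so the p-values describe them.

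Genes called in the same direction in all 3 knockouts differed in size in part: 357 of those higher and 507 of those lower were called in the test among the knockouts, 26.9% and 34.5%, against 28.6% of all genes tested. Such differences were thus not particular to shared genes.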

How the results depend on the processing

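Of 175 results on single genes, 131 kept their direction and their side of adjusted p = 0.05 in every alternative fit that tested the gene, and 0 reversed. The setting of adjusted p under 0.01 was not applied to single genes. Among the fits that left out 1 library, the shared counts were lowest without a WT BFP library. When each of the 11 libraries was left out in turn, shared genes numbered 563 to 1629 higher and 884 to 1521 lower, and the mean called 1591 to 3498 higher and 2207 to 3715 lower. ISL1 KO then had 1128 to 3114 higher and 1798 to 3072 lower, PAX6 KO 1461 to 3163 and 1778 to 3053, and PDX1 KO 1782 to 3569 and 2209 to 3775. Driven genes ran from 69 to 186 (ISL1 KO), 55 to 114 (PAX6 KO) and 211 to 435 (PDX1 KO).

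With scaling by library size alone the shared higher genes were 2376, the mean called 5195 higher, ISL1 KO 4590 higher, and PAX6 KO 4987 higher and 1867 lower. A fit of all 21 libraries gave 142 shared higher and 397 lower, 757 and 1695 in the mean, 455 and 994 in ISL1 KO, 534 and 942 in PAX6 KO, 1011 and 1518 in PDX1 KO, and 47, 36 and 104 genes driven by ISL1 KO, PAX6 KO and PDX1 KO. At adjusted p under 0.01 the counts were 576 and 855 shared, 1780 and 2318 in the mean, 1328 and 1657 in ISL1 KO, 1478 and 1782 in PAX6 KO, 1897 and 2224 in PDX1 KO, and 57 (ISL1 KO) and 185 (PDX1 KO) driven. A log2 fold change of at least 1 in each knockout left 471 and 708. In the ISL1 OE libraries, leaving out the 2 that stand apart gave 680 called higher and 1018 lower, against 0 and 29. The cause of these moves was not tested.

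Whether replicate numbers pair libraries was not settled. Deviations of 15 same-numbered pairs correlated at −0.397 to 0.628, with a median of 0.086 and 7 over 0.1. Those of 30 pairs with different numbers correlated at −0.628 to 0.628, with a median of −0.062 and 12 over 0.1. Deviations within groups of 2 or 3 libraries are tied to each other, so these values cannot exclude pairing. A fit with the replicate number as a block shared 2812 genes, 2519 of them among the 2799. DESeq2's Wald test shared 3248 (2769 of the 2799), DESeq2 size factors 2801, no filter on low counts 2695 and 2 choices added after the data were seen, a lane-set block and the correction for GC content, 2509 and 2575. Counting error is small at these depths, except for genes of a few counts.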
